A study of Homo sapiens with 16 samples.

Results

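Voltage-gated sodium channel genes were followed in SH-SY5Y cells, a human neuroblastoma line that takes on neuron-like features under retinoic acid and BDNF. The 8 genes were chosen by name: 6 encode pore-forming alpha subunits (SCN1A, SCN2A, SCN3A, SCN8A, SCN9A and SCN7A) and 2 encode beta subunits (SCN2B and SCN3B). They are 8 of the 69222 genes in the count table, and all 8 were among the 18081 genes with enough counts to be tested, SCN1A through its film libraries alone, since its plate libraries held 8 counts or fewer. Polyadenylated RNA was sequenced from 8 groups of 2 libraries each, 16 in all.

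The groups were cells differentiated on P(rGO) (a polymer composite with reduced graphene oxide), on PEDOT:PSS (a conducting polymer blend) or on ITO (indium tin oxide), each with and without electrical stimulation, cells differentiated on culture plates, and untreated cells on culture plates. All groups but the untreated one went through the same differentiation, in which serum fell to 5%, 2.5% and 1% on days 2, 3 and 5, and cells received 10 µM retinoic acid between days 3 and 6, then 50 ng/mL BDNF during 4 days. Stimulated cells received a 0.1 V square wave at 1 Hz for 8 h per day during the last 4 days. The labels describe a poly-L-lysine and laminin coat on the films and name none for the plates, so the film material and the coat cannot be told apart in a comparison of films with plates. Nothing in the labels says that the 2 libraries of a group came from separate cultures, so every p-value measures the spread between these libraries only.

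Voltage-gated sodium channels open when a cell is depolarised and let in the sodium current that forms the rising phase of the action potential. The alpha subunit holds the pore, the voltage sensors and an intracellular loop that closes the pore again, while the beta subunits are small proteins with an immunoglobulin-like domain that alter gating and surface delivery. Sympathetic neurons, the lineage that neuroblastoma comes from, express several alpha subunits, and SCN9A is prominent among them. SCN7A encodes the atypical member of the family, which responds to sodium concentration rather than to voltage.

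In the proteins of GENCODE 29 transcripts, the 5 classical alpha subunits shared between 73.2% and 88.4% of aligned residues with one another, SCN7A shared between 52.3% and 57.1% with them, and the 2 beta subunits shared 29.2%.

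Sequence likeness matters for counting, because a read that aligns equally well to 2 genes may be left uncounted. Exact stretches of 100 bases shared with another listed sodium channel gene made up 1.9% of positions in SCN3A, 1.3% in SCN2A, 1.08% in SCN9A and 0.477% in SCN1A, and 0% in SCN8A, SCN7A, SCN2B and SCN3B. SCN2A and SCN3A lie head to head and overlap on chromosome 2 (165194993 to 165392310 on the plus strand and 165087522 to 165204067 on the minus strand), and both are overlapped by the antisense gene AC019197.1 of GENCODE 29, while SCN1A and SCN9A are overlapped by the antisense gene SCN1A-AS1. Whether strand was used in counting is not known from the labels, so reads from those overlaps are uncertain. SCN1A-AS1 held 11 counts over all 16 libraries and was not tested, and AC019197.1 was not analysed here. SCN9A (166195185 to 166376001) and SCN7A (166403573 to 166494326) follow on the same chromosome and strand, SCN8A lies on chromosome 12, and both beta subunit genes lie on chromosome 11.

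The libraries held 15600410 to 20851000 reads assigned to genes. Replicate libraries varied by a coefficient of 6.88% to 18.2% on films, 18.1% on differentiated plates and 36.2% on untreated plates. The plate libraries stood apart from the film libraries in ribosomal protein genes, which took 2.72% to 3.48% of counts in film libraries, 5.32% and 3.94% in the differentiated plate libraries (replicates 1 and 2) and 5.87% and 8.46% in the untreated ones. Mitochondrial genes took 8.58% of counts in differentiated plate replicate 1 and 5.42% in replicate 2. Among markers of the adrenergic neuroblastoma cell, which fit the labelled line, 8 of 9 were well enough counted to be tested, with sums of 2900 to 3590 CPM on films, 4050 to 4140 on differentiated plates and 5470 to 5920 on untreated plates, while CHGA was listed at 0 in every library. Of those 8 tested adrenergic markers, ISL1 was called higher and 3 were called lower on differentiated than on untreated plates. On the mean of the unstimulated films over differentiated plates 3 were called lower and none higher. Schwann and glial markers summed to 3.9 to 14.5 CPM with SOX10 at 0 throughout. Mesenchymal neuroblastoma markers summed to 148 to 247 CPM on films, 154 to 184 on differentiated plates and 841 to 1340 on untreated plates, with PRRX1 at 1 count in all libraries together and all 6 tested markers lower on differentiated than on untreated plates. Fibroblast markers summed to 194 to 331 CPM on films, 221 to 252 on differentiated plates and 424 to 636 on untreated plates. The like sums of films and differentiated plates hide opposite moves. Of 7 tested fibroblast markers, 2 were called higher and 1 lower on the mean of the unstimulated films over differentiated plates. LUM averaged 21.5 CPM on films and 2.42 on plates, DCN 1.12 and 0.288, and PDGFRA 21.9 and 77.8. The part of the ribosomal protein share and of these markers in the results was not tested.

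Scaled for length, as CPM (reads assigned to a gene, scaled to a common library size) per kilobase of exon in GENCODE 29, SCN3B led the 8 genes in every group, with 23.3 ± 0.408 on unstimulated P(rGO), 17.3 ± 3.33 on differentiated plates and 10.2 ± 0.0419 on untreated plates (SD, n = 2 each). By group mean, SCN3A came next in all 7 differentiated groups, then SCN9A, SCN2A and SCN8A. On differentiated plates these 4 stood at 12.5 ± 2.62, 9.03 ± 2.16, 7.55 ± 1.02 and 3.21 ± 0.77 CPM per kilobase. There the libraries of SCN9A (7.5 to 10.6) and SCN2A (6.83 to 8.27) overlapped. Those of SCN3A and SCN9A overlapped on unstimulated PEDOT:PSS and on P(rGO) with and without stimulation. On stimulated P(rGO) SCN3A ran from 13.1 to 16.2 and SCN9A from 12.3 to 13.5. In untreated cells the same 4 lay closer together, at 4.31 ± 1.36 for SCN3A, 3.01 ± 1.06 for SCN2A, 2.76 ± 1.54 for SCN8A and 2.56 ± 1.3 for SCN9A, and their library values overlapped. SCN1A was the lowest gene in every group, at no more than 0.0716 CPM per kilobase in any library. These ranks were the same when the length of the principal transcript replaced that of all exons.

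Within the length-scaled sum of the 6 alpha genes, SCN9A made up 26.9% and 28.1% in the differentiated plate libraries, against 24.4% and 14.7% in the untreated ones. SCN7A made up 2.66% to 7.82% in film libraries, 1% and 1.81% in differentiated plate libraries and 0.595% and 0.195% in untreated ones. The share of SCN8A was 9.55% and 9.98% on differentiated plates and 11.7% and 34.6% in untreated cells, where the high value came from replicate 2.

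**Figure D1:**
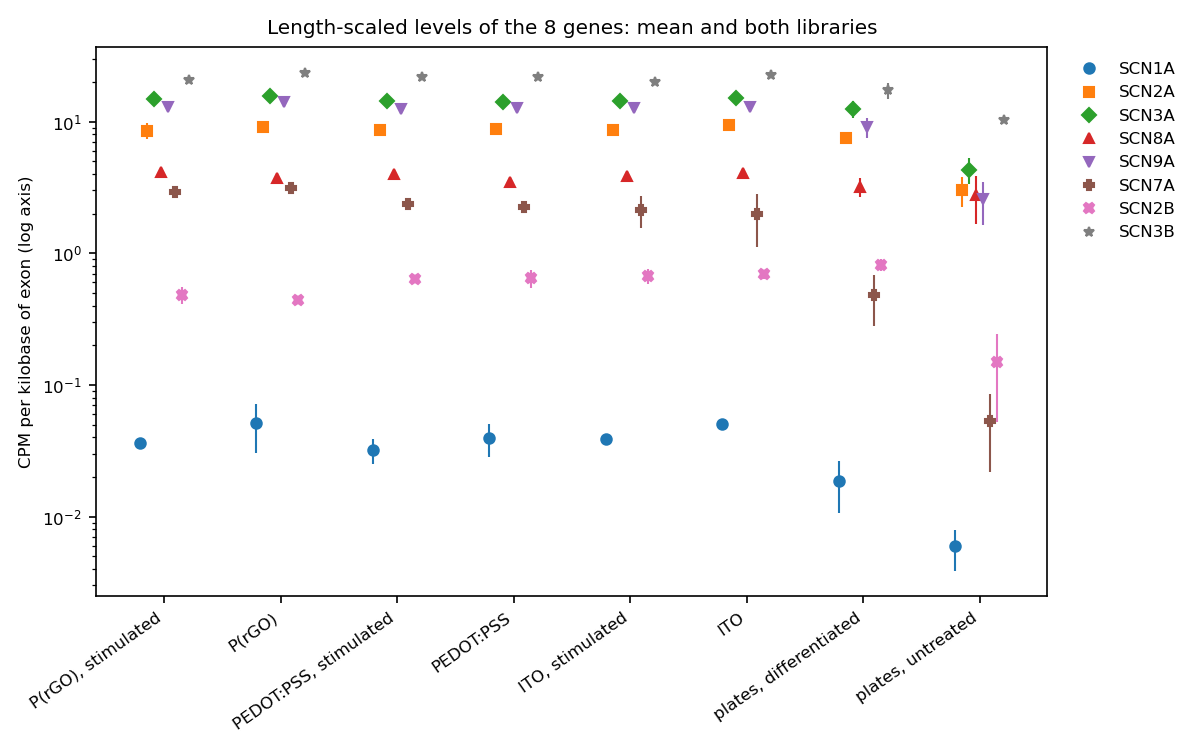
Mean level of the 8 genes in each group as CPM per kilobase of exon on a log axis, with vertical lines from the lower to the higher of the 2 libraries. SCN3B lies highest in every group, SCN1A lowest, and SCN7A moves most, standing at 3.14 on unstimulated P(rGO), 0.48 on differentiated plates and 0.0533 on untreated plates.

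Differentiation on plates raised 6 of the 8 genes and lowered none (edgeR's quasi-likelihood test, Benjamini-Hochberg adjusted p at or under 0.05 over all genes tested). Over all genes 13.8% were called higher. The median log2 fold change was 1.56 for the 8 genes and -0.0106 for all genes tested. In bulk RNA, more cells that express a gene and more RNA per cell cannot be told apart.

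SCN9A, best known from sensory and sympathetic neurons and from inherited disorders of pain, had 77.4 and 108.9 CPM in differentiated plate cells, against 35.9 and 16.9 CPM in untreated cells. Both differentiated libraries lay above both untreated ones, and the log2 fold change was 1.82 (SE 0.25, adjusted p = 0.00034, edgeR). SCN3A, the alpha subunit typical of fetal brain, had 97.9 and 132.1 CPM in differentiated cells and 48.6 and 30.9 CPM in untreated cells, a log2 fold change of 1.53 (SE 0.21, adjusted p = 0.00034). SCN2A, found at the axon initial segment of excitatory neurons, had 64.0 and 77.6 CPM in differentiated cells and 35.3 and 21.2 CPM in untreated cells, a log2 fold change of 1.33 (SE 0.21, adjusted p = 0.00081). In each of these 3 genes the untreated replicate 1 was the higher untreated library and the differentiated replicate 2 the higher differentiated one.

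SCN7A had the largest fold change of the 8. It held 43 and 114 counts in differentiated libraries and 12 and 3 counts in untreated ones, which is 2.33 and 5.69 CPM against 0.71 and 0.181 CPM. The groups did not overlap, and the log2 fold change was 3.15 (SE 0.65, adjusted p = 0.0033). From the counts alone the ratio was 9.1 (95% interval 5.35 to 16.6, counting error only).

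Both beta subunits rose. SCN2B, which is tied to the alpha subunit by a disulfide bond, had 4.29 and 5.24 CPM in differentiated cells and 1.42 and 0.303 CPM in untreated cells, a log2 fold change of 2.45 (SE 0.46, adjusted p = 0.0019). SCN3B, which associates without such a bond, had 95.5 and 125.7 CPM in differentiated cells and 65.8 and 65.4 CPM in untreated cells, the smallest called change at 0.754 (SE 0.13, adjusted p = 0.0013).

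SCN8A, the main alpha subunit of nodes of Ranvier and of the mature axon initial segment, did not pass. Its values were 34.5 and 48.6 CPM in differentiated cells and 21.7 and 49.9 CPM in untreated cells, so the groups overlapped, and the log2 fold change was 0.216 (95% interval -0.372 to 0.804, adjusted p = 0.58). Its untreated libraries stood in the opposite order to those of SCN9A. Without untreated replicate 2 the value was 0.941 and was called (adjusted p = 0.0038), and without untreated replicate 1 it was -0.273 (adjusted p = 0.24). SCN1A, prominent in inhibitory interneurons, was close to the limit of detection, with 3 and 8 counts in differentiated libraries and 1 and 2 counts in untreated ones. The ratio of its summed counts was 3.19 with a counting interval of 0.842 to 17.8, and the log2 fold change of 1.59 was not called (adjusted p = 0.16).

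The calls of this comparison depended on which libraries were fitted. When only the 4 plate libraries were fitted, 0 of the 8 genes were called and 320 genes in all, against 5353 in the fit of 16 libraries. With only those libraries the log2 fold changes of the 6 genes were 0.752 to 3.15 with adjusted p of 0.058 to 0.15. SCN7A also lost its call without differentiated plate replicate 2 (2.35, adjusted p = 0.055) and without untreated replicate 2 (2.5, adjusted p = 0.056), and stood at 4.42 without untreated replicate 1 (adjusted p = 0.01). SCN2B stood at 3.94 without untreated replicate 1 (adjusted p = 4.1e-05) and 1.75 without untreated replicate 2 (adjusted p = 0.0042). SCN9A stood at 2.45 without untreated replicate 1 and 1.38 without untreated replicate 2. SCN2A, SCN3A, SCN9A, SCN2B and SCN3B kept their calls without any 1 of the 4 plate libraries.

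**Figure D2:**
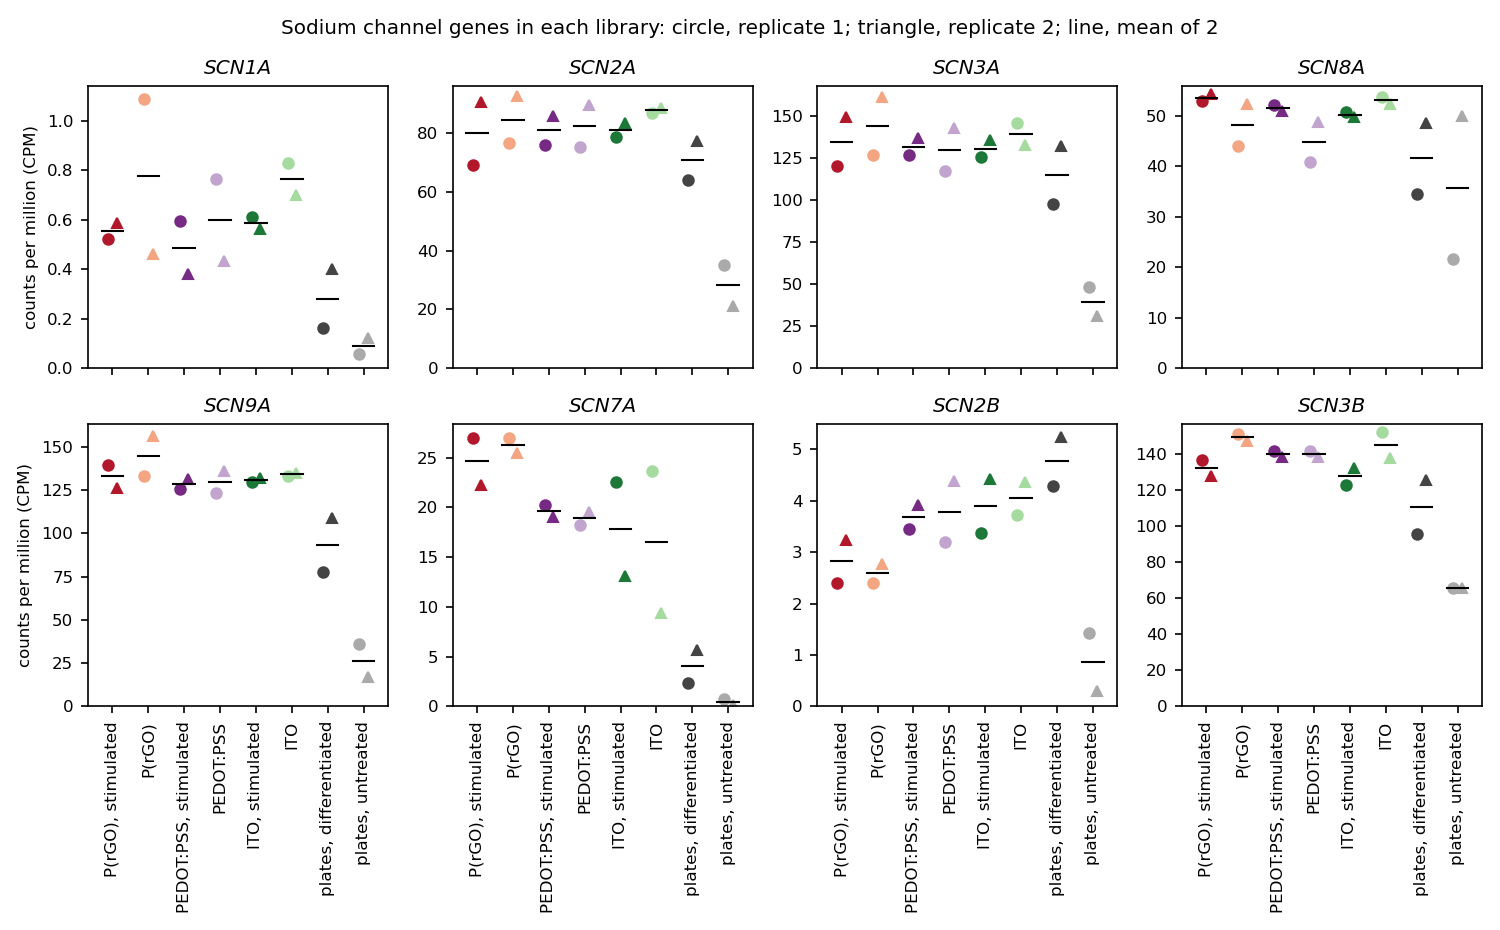
CPM of each gene in each library, with groups along the horizontal axis, circles for replicate 1, triangles for replicate 2 and a line at the mean of both. Untreated cells lie lowest for every gene, with an overlap for SCN8A alone among the plate groups, and SCN2B is the gene whose highest values lie on differentiated plates.

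Differentiated cells on unstimulated films were also compared with untreated plate cells, with the untreated libraries shared by both comparisons. Differentiation, film material and coat all differ here, so their parts cannot be told apart. On the mean of the 3 films 7 of the 8 genes were called higher, or 6 without SCN1A, with 20.4% of all genes called higher. SCN7A stood at a log2 fold change of 5.47 (SE 0.57, adjusted p = 8.4e-06), SCN9A at 2.36 (SE 0.23, adjusted p = 5.7e-06) and SCN2B at 1.97 (SE 0.41, adjusted p = 0.0015). SCN3A, SCN2A and SCN3B stood at 1.79, 1.59 and 1.14. SCN8A again did not pass, at 0.441 (95% interval -0.051 to 0.934, adjusted p = 0.13). It was called without untreated replicate 2 (1.17, adjusted p = 0.00023) and when no low-count filter was used (0.456, adjusted p = 0.024). SCN1A passed the low-count filter only through the films, where it is high, so its call (2.88, adjusted p = 0.003) gives no support of its own. It summed to 73 counts over the 6 film libraries and 3 counts over the 2 untreated libraries. The ratio of 7.9, with a counting interval of 2.6 to 39.2, is a description only. SCN2B moved most with a single untreated library, to 3.46 without replicate 1 and 1.27 without replicate 2, and was called in both.

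Growth on a film in place of a plate was asked next, among cells that had all been differentiated and, on single films, not stimulated. SCN7A was higher on each of the 3 films, and no other member was called on any single film. Of all genes tested, P(rGO) had 2.99% called higher, PEDOT:PSS 1.02% and ITO 2.5%. SCN7A had 27.0 and 25.5 CPM on P(rGO), 18.3 and 19.5 CPM on PEDOT:PSS and 23.7 and 9.38 CPM on ITO, against 2.33 and 5.69 CPM on plates. Every film library lay above both plate libraries. P(rGO) gave a log2 fold change of 2.7 (SE 0.45, adjusted p = 0.0046). PEDOT:PSS gave 2.23 with an adjusted p of 0.026, and ITO gave 2.03 with an adjusted p of 0.022. On ITO the replicates disagreed in size, with differences of 3.34 between the replicate 1 libraries and 0.72 between the replicate 2 libraries. When the 2 untreated libraries were left out of the fit, 4 members were called on P(rGO). SCN9A (0.633, adjusted p = 0.011) and SCN3B (0.428, adjusted p = 0.034) were higher and SCN2B lower, beside SCN7A. SCN9A was also called on ITO (0.537, adjusted p = 0.028). Calls in either direction rose among all genes too, from 838 to 2183 on P(rGO) and from 764 to 1722 on ITO.

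Averaged over the 3 unstimulated films, 2 of the 8 genes were higher than on plates and none lower, with 4.46% of all genes called higher and 3.79% lower. SCN7A changed by 2.32 on the log2 scale (SE 0.41, adjusted p = 0.0038) and SCN3B by 0.387 (SE 0.11, adjusted p = 0.042). SCN3B had 151.0 and 147.3 CPM on P(rGO), 141.9 and 138.1 CPM on PEDOT:PSS and 152.2 and 137.7 CPM on ITO, against 95.5 and 125.7 CPM on plates, and all 6 film libraries lay above both plate libraries. The 8 genes' median was 0.325, against -0.0254 over all genes tested. That median includes SCN1A, which passed the low-count filter only through its film libraries, so it is a description only. The stimulated films, set against the same plate libraries, gave SCN7A 2.34 (SE 0.41, adjusted p = 0.0059) as the single called member, with 2.23% of all genes called higher, and SCN3B 0.268 (adjusted p = 0.19).

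Among the other members SCN9A came nearest. Its 12 film libraries, stimulated ones included, lay between 123 and 156 CPM with a median of 133, above both plate values of 77.4 and 108.9, and the change on the unstimulated films was 0.546 (95% interval 0.108 to 0.985, adjusted p = 0.12). It was called when the untreated libraries were left out (adjusted p = 0.0065), when only the groups compared were fitted (adjusted p = 0.014) and with no low-count filter (adjusted p = 0.0046), and not without plate replicate 1 (0.32, adjusted p = 0.7). SCN2A at 0.264 (95% interval -0.103 to 0.631), SCN3A at 0.261 (-0.108 to 0.63) and SCN8A at 0.225 (-0.258 to 0.709) did not pass, and their film and plate libraries overlapped. SCN1A, with 73 counts on the 6 unstimulated film libraries and 11 on the 2 plate libraries, stood at 1.29 (0.211 to 2.37, adjusted p = 0.14). Because it passed the low-count filter only through the films, this interval gives no support of its own.

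SCN2B was the one member with a lower value on films. It ranged from 2.4 to 4.42 CPM over the 12 film libraries with a median of 3.41, against 4.29 and 5.24 CPM on plates, and 9 of the 12 film libraries lay below both plate libraries. Its change on the unstimulated films was -0.481 (95% interval -1.16 to 0.195, adjusted p = 0.4). On P(rGO) alone it was -0.878 (adjusted p = 0.25), with 2.41 and 2.78 CPM, below both plate values. That value was called when the 2 untreated libraries were left out (-0.88, adjusted p = 0.044).

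The film calls rested on differentiated plate replicate 1, the lower plate library for all 8 genes. Without it SCN7A stood at 1.82 on the mean of the 3 unstimulated films (adjusted p = 0.1) and SCN3B at 0.202 (adjusted p = 0.56), and 0 members were called on any film. Without plate replicate 2 SCN7A and SCN3B kept their calls, at 3.12 (adjusted p = 0.0057) and 0.611 (adjusted p = 0.012). SCN3B was also not called without any 1 of the 6 film libraries (0.362 to 0.41, adjusted p = 0.058 to 0.096), nor with no low-count filter (0.386, adjusted p = 0.093). On single films SCN7A lost its call without either PEDOT:PSS library (adjusted p = 0.14 and 0.16) and without ITO replicate 1 (1.21, adjusted p = 0.27).

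**Figure D3:**
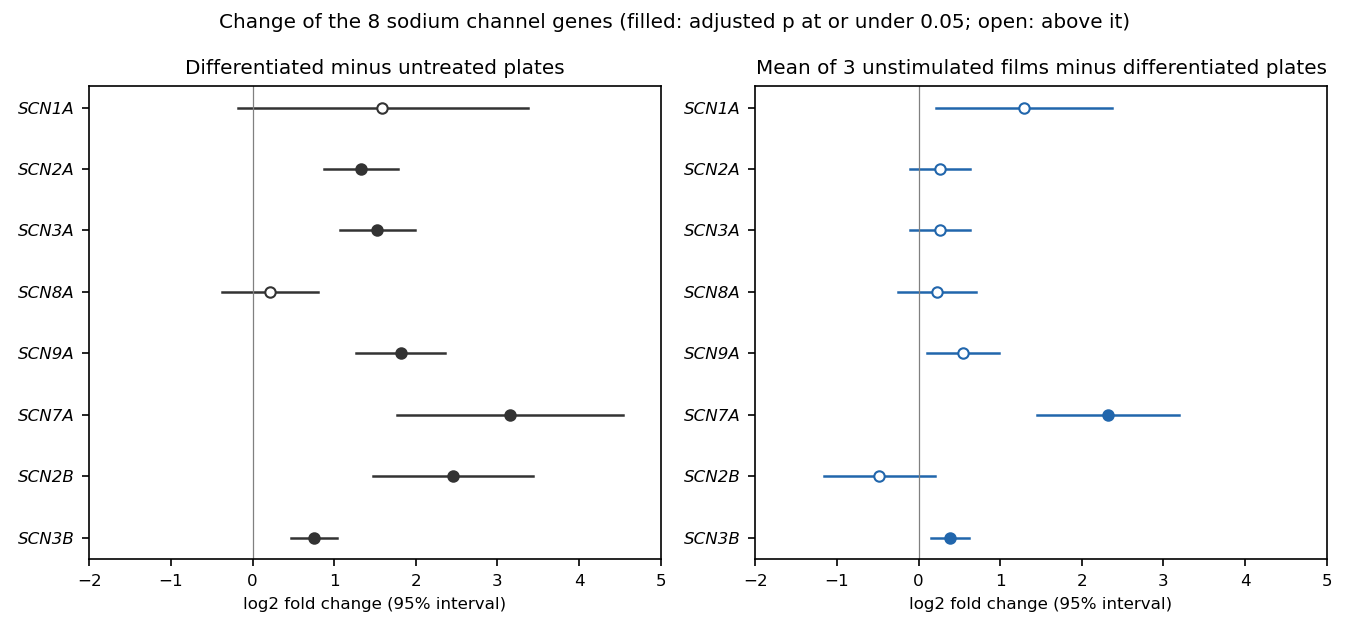
Log2 fold changes with 95% intervals for the 8 genes, on the left for differentiated over untreated plates and on the right for the mean of the 3 unstimulated films over differentiated plates, filled where the adjusted p was at or under 0.05. On the left 6 points are filled, from 0.754 for SCN3B to 3.15 for SCN7A. On the right SCN7A at 2.32 and SCN3B at 0.387 are filled, and SCN2B at -0.481 is the one point below 0.

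No member passed the test for a difference between the 3 films. A test of any difference between the unstimulated films called 0 of the 8 genes and 0% of all genes (edgeR, unadjusted p under 0.05 for 239 of 18081 genes and for 0 members, and 1 gene called by DESeq2). The smallest unadjusted p among members was 0.28, for SCN7A and SCN2B. In the order of group means SCN7A ran from P(rGO) at 26.2 ± 1.06 through PEDOT:PSS at 18.9 ± 0.903 to ITO at 16.5 ± 10.1 CPM, and the ITO libraries enclosed those of PEDOT:PSS. SCN2B ran from ITO at 4.05 ± 0.451 through PEDOT:PSS at 3.79 ± 0.842 to P(rGO) at 2.59 ± 0.264 CPM, with both P(rGO) libraries below the other 4. SCN9A ran from 145 ± 16 on P(rGO) to 134 ± 1.15 on ITO and 130 ± 9.15 on PEDOT:PSS, where each neighbour overlapped the next.

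No member passed the test for an effect of electrical stimulation on any film. In edgeR 0 of the 8 genes were called on each film. The share of all genes called was 0% for each of P(rGO), PEDOT:PSS and ITO, and likewise 0% for the mean effect over the 3 films and 0% for its difference between films. Unadjusted p lay under 0.05 for 986, 126, 293, 1021 and 133 of 18081 genes in these 5 tests and for 0 members in each. DESeq2 called 14 genes on P(rGO) and 7 for the mean effect, none of them a member.

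The 95% intervals of the mean effect over 3 films ran from -0.329 to 0.181 for SCN2A, from -0.313 to 0.201 for SCN3A, from -0.356 to 0.243 for SCN9A and from -0.246 to 0.428 for SCN8A on the log2 scale. SCN3B had the narrowest, from -0.279 to 0.0423 around -0.119. SCN7A (-0.486 to 0.535), SCN2B (-0.489 to 0.505) and SCN1A (-1.05 to 0.293) were less closely bounded. On ITO the SCN7A libraries stood at 22.6 and 13.1 CPM with stimulation and 23.7 and 9.38 CPM without. The log2 differences were -0.0693 between the replicate 1 libraries and 0.478 between the replicate 2 libraries.

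SCN8A showed the one split between films. It had 53.0 and 54.3 CPM with stimulation on P(rGO), against 44.0 and 52.4 CPM without, and 52.2 and 50.9 CPM with stimulation on PEDOT:PSS, against 41.0 and 48.9 CPM without. On ITO it had 50.7 and 49.7 CPM with stimulation, against 53.7 and 52.5 CPM without. None of these differences passed (log2 fold changes of 0.155, 0.199 and -0.0801, adjusted p of 0.99, 1 and 1), nor did the test of a difference between films (unadjusted p = 0.74).

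**Figure D4:**
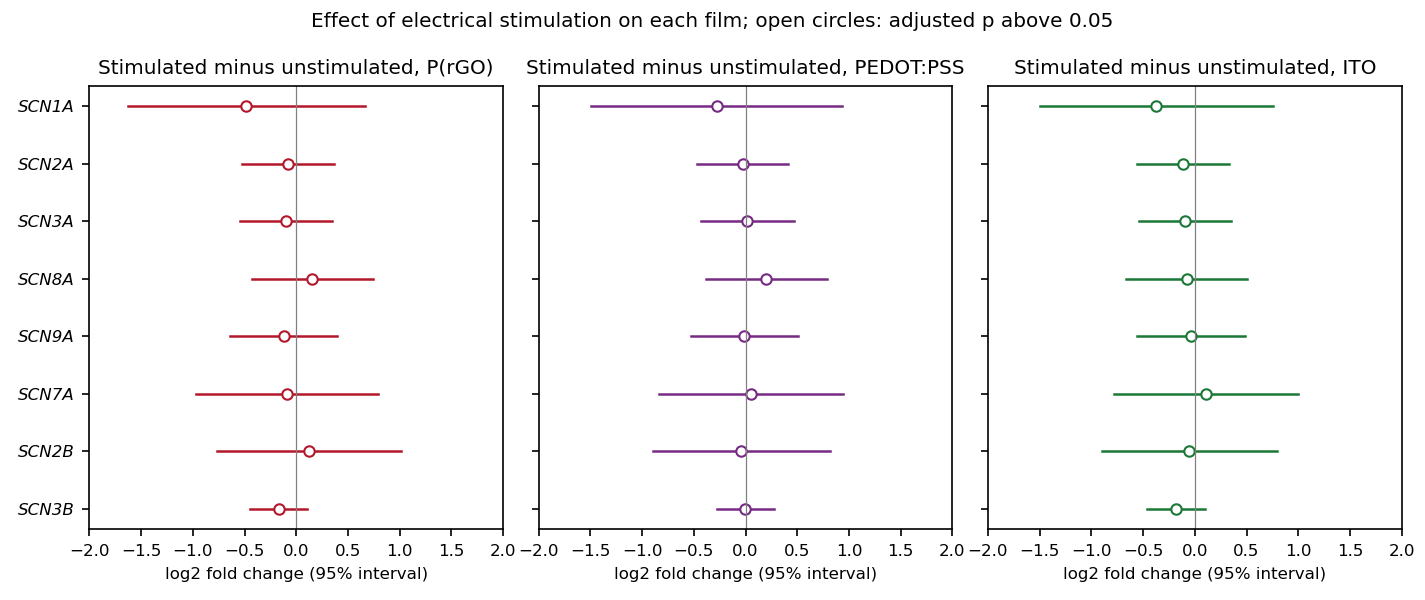
Log2 effect of electrical stimulation with 95% intervals for the 8 genes, in panels for P(rGO), PEDOT:PSS and ITO. Every interval crosses 0 and every circle is open, and the widest intervals belong to SCN1A, which runs from -1.63 to 0.664 on P(rGO).

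The genes most like each member in level over the 16 libraries are given as a description, since all genes share the libraries and the step to the untreated cells. SCN2A and SCN3A were most like each other (r = 0.994 over 16 libraries on the log2 scale, 0.927 over the 14 differentiated libraries). After that pair, SCN2A was nearest to CASD1 (0.992) and HGSNAT (0.989), and SCN3A to ANKIB1 (0.993) and KIF3A (0.99). SCN9A lay nearest to KIF3B (0.989), PRMT2 (0.987) and LRRK2 (0.987), and SCN8A to PCLO (0.952), AGO3 (0.948) and OTUD1 (0.944). Among the genes near SCN7A was ANO10, with an r of 0.98 over 16 libraries and 0.941 over the 14 differentiated ones. SCN3B lay nearest to PCYT2 (0.989), GNG8 (0.988) and DKK3 (0.987). Among the members SCN2B had r of 0.452 to 0.891 with the others over 16 libraries except SCN8A (0.247), and -0.682 to 0.131 over the 14 differentiated libraries.

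Other genes of the sodium channel system were read from 4 lists. Over all genes 13.8% were called higher and 15.8% lower on differentiated than on untreated plates. For the mean of the 3 unstimulated films over differentiated plates these shares were 4.46% and 3.79%. Of 7 further sodium channel genes 5 could be tested, and 1 rose and 1 fell with differentiation. SCN11A, an alpha subunit of pain-sensing neurons, averaged 2.12 CPM in differentiated cells and 0.805 CPM in untreated cells (log2 fold change 1.39, adjusted p = 0.032), and SCN4B, a beta subunit, averaged 4.85 CPM in differentiated cells and 9.63 CPM in untreated cells (-0.99, adjusted p = 0.027). None of the 5 was called on the mean of the 3 unstimulated films.

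Of 20 tested partners of the channels and parts of the axon initial segment, 10 rose and 4 fell with differentiation, with a median of 0.471. ANK2, an ankyrin that tethers membrane proteins to the cytoskeleton, averaged 517 CPM in differentiated cells and 68.8 CPM in untreated cells (2.91, adjusted p = 4.3e-05). NRCAM, a cell adhesion molecule that gathers channels at nodes, averaged 294 CPM in differentiated cells and 505 CPM in untreated cells (-0.781, adjusted p = 0.00098). On the unstimulated films, against differentiated plates, 2 rose and 1 fell. NRCAM averaged 560 CPM on films and 294 CPM on plates (0.922, adjusted p = 0.00034), and FGF14, an intracellular channel partner, averaged 51.7 CPM on films and 88.4 CPM on plates (-0.788, adjusted p = 0.0099). ANK3, the master organiser of the axon initial segment, was not called on differentiated over untreated plates (0.429, adjusted p = 0.34) or on films over differentiated plates (0.569, adjusted p = 0.22), and was called on films over untreated plates (0.998, adjusted p = 0.01).

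Among 5 tested genes of the sodium-potassium pump, which restores the sodium gradient, ATP1B1 rose with differentiation (541 CPM in differentiated cells and 325 CPM in untreated cells, adjusted p = 0.018), and 2 genes fell, among them ATP1B3 (68.8 CPM in differentiated cells and 99.5 CPM in untreated cells, log2 fold change -0.531, adjusted p = 0.015). On films ATP1B1 (881 CPM on films and 541 CPM on plates, adjusted p = 0.025) and ATP1B3 rose. Of 7 tested transcription regulators linked to neuronal sodium channel genes, 4 fell with differentiation and none rose. The smallest p was that of POU4F2 (0.417 CPM in differentiated cells and 2.52 CPM in untreated cells, adjusted p = 0.0012). REST, a repressor of neuronal genes that include SCN2A, averaged 17.9 CPM in differentiated cells and 39.0 CPM in untreated cells (-1.12, adjusted p = 0.0014), yet 33.1 CPM on unstimulated films against 17.9 CPM on plates (0.876, adjusted p = 0.0064). EGR1, an immediate early factor, averaged 222 CPM on the unstimulated films and 27.9 CPM on plates (2.98, adjusted p = 0.0029), and RCOR2, a REST corepressor, averaged 35.8 CPM on films and 64.4 CPM on plates (-0.856, adjusted p = 0.00038).

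These list counts moved with single plate libraries. Without differentiated plate replicate 2 the genes called with differentiation numbered 4 rises and 3 falls among the partners, 0 rises and 0 falls in the pump list and 0 rises and 0 falls among the further channel genes. SCN4B, the one fall among the further channel genes, was not called without differentiated plate replicate 1 either, and SCN11A was not called without untreated replicate 2. Without untreated replicate 1 the pump list had 0 rises and 4 falls. On films over plates, without differentiated plate replicate 1, the list genes called fell to 1 rise and 0 falls among the partners, 0 rises in the pump list and 0 rises and 1 fall among the regulators, and without replicate 2 the pump list had 1 rise.

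Promoter sequence was read for SCN7A and SCN9A, the alpha genes with the largest called changes on plates, as the 250 bases before a RefSeq start in GRCh38.p14. The SCN7A window lies at chr2:166494250-166494499 on the minus strand and has 62.4% G and C, against a median of 58% over 35116 promoters. Its capitals mark the one match, on the opposite strand, to GCGTGGGCG, a form of the EGR site that 0.72% of all promoters hold on either strand. The window also holds 2 matches to the GC box GGGCGG over both strands, 1 of which overlaps the capitals. It further holds 2 matches to the E-box CAGCTG, a motif in 14% of promoters, of which the SCN9A window holds 1.
SCN7A promoter: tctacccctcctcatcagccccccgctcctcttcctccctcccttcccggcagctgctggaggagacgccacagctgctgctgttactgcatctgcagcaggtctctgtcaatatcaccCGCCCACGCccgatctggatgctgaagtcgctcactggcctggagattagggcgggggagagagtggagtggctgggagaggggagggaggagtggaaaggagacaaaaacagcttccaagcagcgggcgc
The SCN9A window lies at chr2:166375945-166376194 on the minus strand and has 74% G and C and 22 CpG pairs, against a median of 11. Its capitals mark 2 matches to the GC box GGGCGG on the opposite strand, a motif in 42.6% of promoters.
SCN9A promoter: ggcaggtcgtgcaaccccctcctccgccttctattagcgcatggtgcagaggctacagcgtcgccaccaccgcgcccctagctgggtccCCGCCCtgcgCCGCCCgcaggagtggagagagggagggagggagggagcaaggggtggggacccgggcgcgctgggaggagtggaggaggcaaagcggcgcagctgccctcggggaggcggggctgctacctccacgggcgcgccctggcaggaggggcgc
The other EGR form searched, GCGGGGGCG, is held by 4.72% of all promoters. It had 3 matches in the SCN8A window, the only member window to hold it. SCN8A was not called on differentiated over untreated plates or on unstimulated films over differentiated plates in the main fit. A second SCN7A start, some way inside the gene, held neither EGR form. The retinoic acid response element core AGGTCA was in 0 of the 9 promoter windows of the members and in 12.1% of all promoters. Several motifs were searched in these windows, and the shares of promoters are not adjusted for that search. A link between EGR1 and these sites was not tested. Whether any factor binds these letters in these cells was not measured.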

How the data were processed

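Per the labels' protocols, polyadenylated SH-SY5Y RNA went into directional libraries. The authors deposited raw gene counts, with HTSeq's summary rows, which were left out of the totals (reads in no feature came to 5.58% to 10%, and ambiguous reads to 4.73% to 5.34%, of uniquely aligned reads, and reads aligned more than once to 6.97% to 7.97% of all aligned reads counted). STAR and HTSeq (no versions), GRCh38.p13 and hg38 are named in the submitters' processing notes. Neither strand setting nor annotation release is given in the sources used here. Gene symbols came from a table that matched 62639 of 69222 IDs, and each member matched 1 row.

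Counts were analysed in R 4.3.3 with edgeR 4.0.16. The default expression filter over the 8 groups (minimum count 10, minimum total 15) left 18081 genes, with TMM scaling. One robust quasi-likelihood model with a mean per group was fitted to all 16 libraries (8 residual degrees of freedom), 13 comparisons were tested, and p was adjusted over all genes (called at 0.05 or less). A standard error is the log2 fold change over the root of F. Levels are CPM on scaled library sizes. The model was run on simulated data in which a gene had the same spread in every group. That run could not show how unequal spread between groups affects the calls. Exact counting intervals are at 95% and cover counting error only.

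The members, lists and tests were chosen with earlier results of these data known. Named genes were the 8 members, the 3 tested genes with the highest Pearson r to each member that averaged 5 CPM or more (candidates likewise), and the smallest p per direction in each list, plus genes whose role the text needed (ANK3, REST and ATP1B3, named after their values were seen), except some that are not reported here. Exon lengths and protein identity came from GENCODE 29, and promoters from RefSeq (GRCh38.p14), which gave 9 windows for 6 of the 8 genes. Alternatives were DESeq2 1.42.0, a replicate block, scaling by relative log expression, keeping low-count genes, a fit of the groups compared alone, fits without the untreated libraries, and each library left out in turn. Counts for the gene lists without single plate libraries were chosen after seeing the data. The deviation of each replicate 1 library from its own group's mean, over all tested genes, was correlated between groups. These correlations ran from -0.23 to 0.37 (median 0.13, 28 pairs of groups, 16 above 0.1). The numbers were not taken to pair samples, though these values cannot settle whether they do. In the labels each replicate number has a prefix of its own, shared by all groups, whose meaning is not given, so a source common to same-numbered libraries is possible. No library was left out of the results as first given.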

Additional observations from a re-analysis of the deposited data

Results flagged for a closer look

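In library values alone, SCN8A stood in opposite orders under stimulation on different films, and no single film passed the test. Both stimulated libraries lay above both unstimulated ones on P(rGO) and PEDOT:PSS and both below on ITO. On P(rGO) the margin was narrow, with 53.0 CPM in the lower stimulated library and 52.4 CPM in the higher unstimulated one. The share of all genes with such a split was not counted. The log2 effect on P(rGO) minus that on ITO was 0.235, and the effect on PEDOT:PSS minus that on ITO was 0.279. The test of the difference between films did not pass (edgeR, unadjusted p = 0.74 for SCN8A, adjusted p = 1).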

How the results depend on the processing

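Of 158 recomputed counts of called members, 133 equalled the reported count or lay within 1.5 times of it. With only the groups compared fitted, the count was 0 for differentiated over untreated plates and 0 for ITO over plates. Without the 2 untreated libraries it was 4 on P(rGO), 2 on ITO and 2 for the stimulated films over plates. With no low-count filter it was 2 on P(rGO) and 2 for the stimulated films, and with DESeq2 it was 2 on P(rGO). Leaving out single libraries gave 5 to 6 members for differentiated over untreated plates, 7 to 8 for films over untreated plates, 0 to 2 for P(rGO), 0 to 1 for PEDOT:PSS and 0 to 2 for ITO over plates, 0 to 2 for the mean of the unstimulated films and 0 to 2 for that of the stimulated films over plates, and 0 in every comparison between films or of stimulation. Of 1021 recomputed log2 fold changes, 934 kept direction and side of the threshold, 25 lost a call, 17 gained one and 45 turned sign. Those 45 were of members not called, among them SCN3B under stimulation on PEDOT:PSS (-0.000442), which was 0.00252 with relative log expression scaling, 0.00819 with no filter, 0.0033 without the untreated libraries, 0.00318 with only the groups compared and 0.00255 in DESeq2. Where leaving out single libraries turned a sign, the log2 fold changes ranged as follows. Differentiated plates over untreated plates ran from -0.273 to 0.941 for SCN8A. The mean of 3 unstimulated films over untreated plates ran from -0.0429 to 1.17 for SCN8A. P(rGO) over differentiated plates ran from -0.0139 to 0.487 for SCN8A. PEDOT:PSS over differentiated plates ran from -0.0193 to 0.427 for SCN3A and -0.114 to 0.395 for SCN8A. The mean of 3 unstimulated films over differentiated plates ran from -0.00133 to 0.507 for SCN8A. The effect of stimulation on P(rGO) ran from -0.967 to 0.255 for SCN1A, -0.286 to 0.0996 for SCN2A, -0.261 to 0.0894 for SCN3A, -0.239 to 0.0432 for SCN7A and -0.108 to 0.323 for SCN2B. The effect of stimulation on PEDOT:PSS ran from -0.645 to 0.168 for SCN1A, -0.149 to 0.106 for SCN2A, -0.118 to 0.17 for SCN3A, -0.0837 to 0.0618 for SCN9A, -0.25 to 0.208 for SCN2B and -0.0198 to 0.0182 for SCN3B. The effect of stimulation on ITO ran from -0.409 to 0.927 for SCN7A and -0.259 to 0.128 for SCN2B. The mean effect of stimulation over 3 films ran from -0.111 to 0.00582 for SCN3A, -0.148 to 0.297 for SCN7A and -0.0682 to 0.0926 for SCN2B. A fit with the replicate block called the same number of members in every comparison (6 for differentiated over untreated plates, 7 for films over untreated plates, 2 for the unstimulated films over plates). Whether the numbers pair the samples is not known from the labels. Deviations of replicate 1 libraries from their group means correlated above 0.1 in 16 of 28 pairs of groups. Counts of all genes called also moved. P(rGO) over plates called 838 genes as reported, 1625 with no filter, 2183 without the untreated libraries, 1463 in DESeq2 and 100 to 1023 with single libraries left out. The same settings gave PEDOT:PSS (267) 872, 954, 664 and 19 to 312, ITO (764) 1430, 1722, 1211 and 132 to 817, and the stimulated films (745) 1686, 1914, 1285 and 73 to 928. The mean of the unstimulated films (1492) called 3021 without the untreated libraries, 2922 with only the groups compared, and 203 to 1261 with single libraries left out. The lowest of each of these ranges came without differentiated plate replicate 1. Differentiated over untreated plates called 1767 to 8050 with single libraries left out. With no filter, stimulation called 168 genes for P(rGO), 3 for PEDOT:PSS, 18 for ITO, 137 for the mean effect and 13 for its difference, and the difference between films called 85, none of them a member. The cause of these shifts was not tested. Depth limits SCN1A, at 1 to 19 counts per library.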
